A study of Mus musculus with 10 samples.

Results

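The probes of this array are not spread evenly: most of the mouse genome carries a sparse backbone, and chosen loci are tiled far more closely. The regions described here are the densely tiled loci on chromosomes 1, 2, 3, 7, 8, 9, 13, 15, 17 and 18. Each of these chromosomes was divided into 100 kb windows from position 0 by the start of each probe, and a window was kept where it held at least 100 distinct probes. The rule uses probe positions only and no measured value. It kept 83 windows with 22867 probes, of 25129 windows and 402346 placed probes on the whole array. Adjacent windows joined into 22 blocks. A kept window held a median of 302 probes (103 to 411), against a median of 14 in the other autosomal windows. The thinnest windows inside the rule lay at chr3:9900000 (103 probes) and chr3:21800000 (105 probes), and windows at chr1:69800000 (96 probes) and chr9:53500000 (93 probes) fell just outside it. All positions are on mm9.

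The arrays compared DNA from 10 BCR-ABL1 leukemias of the mouse, 5 labelled Ikzf1+/+ and 5 labelled Ikzf1+/-, which are heterozygous for an alteration of the gene for the lymphoid transcription factor Ikaros. BCR-ABL1 is the fusion kinase of Philadelphia chromosome-positive leukemia, all 10 tumours share it, and the leukemic cells were GFP+ bone marrow cells. Each tumour DNA was labelled with Cy5 and hybridised against Cy3-labelled DNA of stage-matched non-leukemic bone marrow, which the series text describes as normal DNA of B220+ B cells. Strain, age and sex of the mice, the number of animals behind each genotype and the donor of the normal DNA are not given in the sources used here, so all p-values rest on differences among these DNA samples, some of which may be technical. The same dye carried the tumour DNA on every array, so a dye effect and a difference between tumour and non-leukemic DNA cannot be told apart. The arrays lay on 5 slides of 2, and 1 slide held both genotypes, Ikzf1+/+ tumour 5 and Ikzf1+/- tumour 1.

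Array comparative genomic hybridisation reads DNA copy number as the log2 ratio of tumour over non-leukemic signal. Loss of 1 of 2 copies in every cell corresponds to a log2 ratio of -1, and gain of 1 copy to 0.585. Close tiling is used where deletions of single exons or genes are sought, and in lymphoblastic leukemia the recurrent targets of such deletions are regulators of B-cell development, cell cycle and drug response. The deposited files pair no probe with a gene, and no mm9 gene map was used here. The genes named below are therefore candidates for what each block tiles, taken from general knowledge of the mouse map and not determined from the files. For 19 of the 22 blocks a candidate is named, and for 3 none. In a RefSeq table of another build all 19 candidates lay on the chromosome of their block, and the 9 pairs of neighbouring candidates on 1 chromosome lay in the order of their blocks.

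By these candidates the blocks fall into a few functional groups. Transcription factors of lymphoid cells are represented by Ikzf2 (Helios, a relative of Ikaros), Spi1 (PU.1, an ETS factor of myeloid and B-lymphoid development), Lef1 (a factor of the Wnt pathway), Sox4 (needed by B-cell progenitors), Mef2c (a MADS-box factor) and Tcf4 (an E protein). Rag1 and Rag2 encode the recombinase of antigen receptor genes. Signalling is represented by Il7r (the alpha chain of the interleukin 7 receptor), Gab2 (a docking protein of BCR-ABL1), Pag1 (an adaptor that recruits the kinase Csk), Rasa2 (an inactivator of RAS) and Smad2 (a transducer of TGF-beta). Nr3c2 (the mineralocorticoid receptor) and Tbl1xr1 (a corepressor subunit) belong to nuclear receptor pathways, and Atm is a kinase of the response to DNA breaks. Arid1b (a subunit of the BAF remodelling complex), a cluster of histone genes, Mbnl1 (a splicing regulator) and Arpp21 (a cAMP-regulated phosphoprotein) make up the rest. Of 99 genes in lists of leukemia-related genes, 12 were candidates at a block, among them 5 of 20 lymphoid transcription factors and 0 of 12 chromatin genes. Arid1b was not in the chromatin list. The candidates were themselves named from general knowledge, so these counts are a description only and have no expected share.

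No densely tiled window changed as a whole by an amount near that of a copy. The lowest window mean in any tumour was -0.23, in the Ikzf2 block of Ikzf1+/+ tumour 1, and the highest was 0.264, in the distal block of chromosome 8 in the same tumour. What the windows showed instead were small shifts shared by many tumours, and a few stretches of 1 to 20 kb that stood out in 1 to 4 of the Ikzf1+/+ tumours. The shifts were larger in the Ikzf1+/+ arrays, except with normexp, which turned that order. Normexp here is another background correction, made on raw median signals with an offset of 50 in place of the processed intensities. It therefore differs from the main values in more than the background step. Against non-leukemic DNA, 14 of 83 windows were higher and 14 lower at a limma adjusted p under 0.05 (n = 10). Over all 23425 autosomal windows tested, 7.84% were called higher and 13.2% lower. Without Ikzf1+/- tumour 1, 2 or 5, 9 windows were called higher in each case. The kept windows hold many more probes than the others, so the shares are not of like precision. The size of the 28 called shifts had a median of 0.0647 and ran from 0.0345 to 0.119. Without regard to the test, 17 windows lay above 0 and 12 below 0 in all 10 tumours. No share over all windows was worked out for these counts. Adjacent windows of a block count separately, so the counts are a description only.

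**Figure D1:**
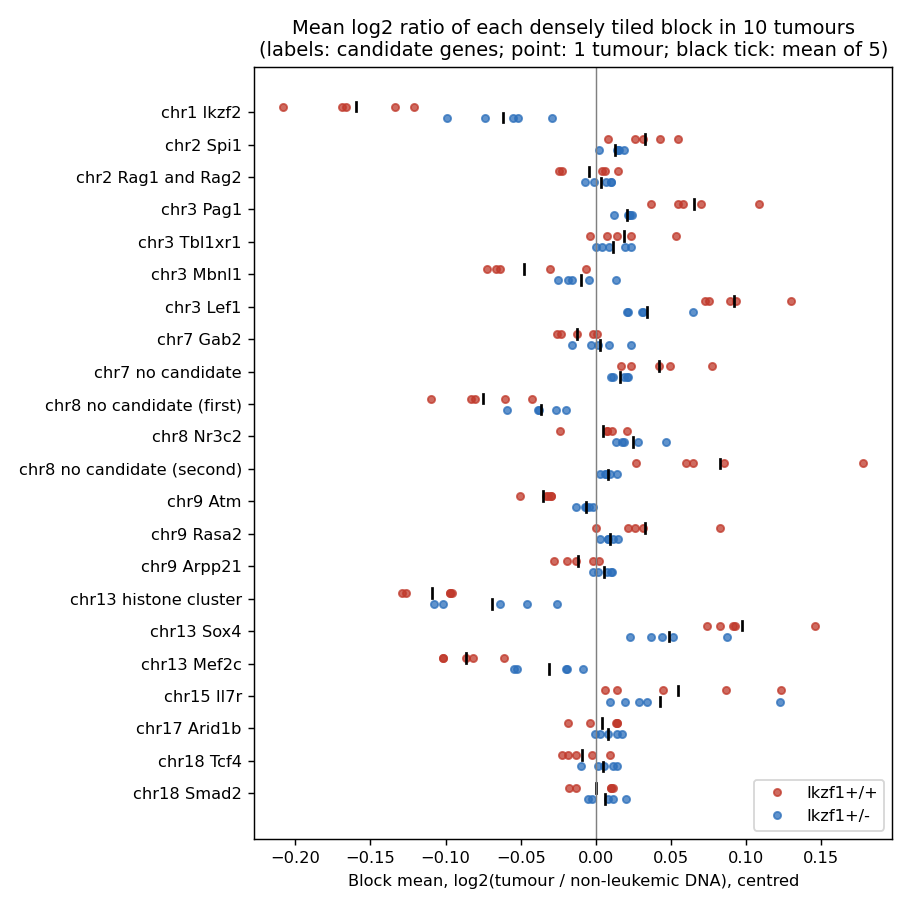
Mean centred log2 ratio of each of the 22 blocks (rows, labelled by chromosome and candidate gene) in each of the 5 Ikzf1+/+ (red) and 5 Ikzf1+/- (blue) tumours, with the mean of each genotype as a black tick. The Ikzf2, histone and Mef2c blocks lie below 0 and the Lef1 and Sox4 blocks above 0 in all 10 tumours. The Ikzf1+/+ means are farther out, the histone and Sox4 values of the genotypes overlap, and with normexp the order of the genotype means turns in the Lef1 and Mef2c blocks.

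Between the genotypes no kept window passed the threshold. In limma, 0 of 83 windows were called higher and 0 lower in Ikzf1+/- tumours, the smallest adjusted p was 0.122, and 16 of 83 had an unadjusted p under 0.05. Over all autosomal windows the called shares were 0.0171% higher and 0.00427% lower. The median standard error of the difference was 0.0233 in the kept windows and 0.0355 in all windows. The values of the genotypes did not overlap in 18 windows: the Ikzf1+/- tumours were higher in 10 (12.0%, against 2.62% of all windows) and lower in 8 (9.64%, against 1.82%). Of the 5 windows with the largest positive difference, 3 were those of the Ikzf2 block, 1 the first Mef2c window and 1 the last histone window. The 5 with the largest negative difference were chr8:125400000 and chr8:125500000 in a block without a candidate, and others in the Lef1 block (chr3:130700000 and chr3:130800000) and at the start of the Sox4 block. With normexp, 4 of these 10 differences turned: those of the 2 chromosome 8 windows, of chr3:130800000 and of chr13:83500000 in the Mef2c block. Of the 22 block means, the genotype difference turned with normexp in 8: those of Spi1, Pag1, Tbl1xr1, Lef1, Rasa2, Mef2c, the chromosome 7 block and the distal chromosome 8 block. The genotypes did not overlap in 6 blocks (Ikzf2, Pag1, Lef1, Mef2c, Atm and distal chromosome 8). With normexp they did not overlap in 11 blocks, with Ikzf1+/- tumours higher in each. Of the 6 blocks, 1 was among these 11, Atm, in the same direction as before. No share over other regions was worked out for blocks. Blocks above 0 in all 10 tumours numbered 8 and blocks below 0 in all 10 numbered 5. With normexp these were 2 (Lef1 and Sox4) and 1 (Ikzf2), and the median block mean was -0.0023 in Ikzf1+/+ and 0.087 in Ikzf1+/- tumours.

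The lowest block was the one on chr1:69500071-69800000, with Ikzf2 as candidate (861 probes in 3 windows). Its mean was -0.21, -0.13, -0.17, -0.12 and -0.17 in Ikzf1+/+ tumours 1 to 5. The Ikzf1+/- tumours, in the same order, measured -0.052, -0.099, -0.029, -0.055 and -0.074. All 10 values were below 0, and the genotypes did not overlap. The 3 windows were called lower than non-leukemic DNA, with limma adjusted p from 0.000582 to 0.00149. The difference between the genotypes reached adjusted p = 0.122 in the middle window (0.10 ± 0.024, SE) and was not called. Low values were not limited to the block. The 419 probes outside densely tiled windows within 1 Mb on either side averaged -0.074 ± 0.046 (SD, n = 10). They include the adjoining window at chr1:69800000 (96 probes), which fell just outside the rule, so this flank is not sparse throughout. Block minus flanks was -0.050 ± 0.012 (SD, n = 5) in Ikzf1+/+ and -0.023 ± 0.017 in Ikzf1+/- tumours. Segmentation placed a mild low segment over the whole block in 3 Ikzf1+/+ tumours, none past the call threshold of 0.3. It was -0.195 in tumour 1 (chr1:68043310-70507664), -0.171 in tumour 3 (chr1:69481141-69811812) and -0.165 in tumour 5 (chr1:68975029-70190384). In tumour 3 the segment ended close to the borders of the block.

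Within the Ikzf2 block, 74 of 85 runs of 10 consecutive probes were called lower than non-leukemic DNA and 0 higher. Runs carry equal probe numbers everywhere. Over the 26882 autosomal runs, 9.04% were called lower and 8.54% higher, and in the 2246 runs of the kept windows 259 (11.5%) were called lower and 269 (12.0%) higher. A kept run spans a median of 2.58 kb and another run 51.6 kb. The run at chr1:69569093-69572408 was 1 of 2 in the kept windows that differed between genotypes. It measured -0.25, -0.22, -0.19, -0.17 and -0.20 in Ikzf1+/+ tumours 1 to 5. In Ikzf1+/- tumours 1 to 5 it measured -0.00066, -0.037, 0.019, -0.018 and 0.019, near 0 in that genotype. The difference was 0.20 ± 0.029 (SE, limma adjusted p = 0.0241), and on the slide with both genotypes it was 0.20. Of its 10 probes, 7 were well above background in both channels on all 10 arrays. Without dim or saturated probes the difference was 0.12 (limma adjusted p = 0.202), and loess within arrays also ended this call (0.18, limma adjusted p = 0.0598). With normexp this run averaged -0.0028 in Ikzf1+/+ and 0.015 in Ikzf1+/- tumours, so its low values were missing in both genotypes. The rest of the block then stood at -0.10 and -0.064. The lowest run value of any tumour in the kept windows lay in the same block, at chr1:69646718-69650016: -0.27, -0.24, -0.43, -0.34 and -0.53 in Ikzf1+/+ tumours, against -0.093, -0.087, -0.21, -0.056 and -0.032 in Ikzf1+/- tumours. Its difference of 0.27 ± 0.053 had a limma adjusted p of 0.0736 and turned to -0.064 with normexp background correction. Its probes were dim, with 66.0% of values well above background in Ikzf1+/+ and 94.0% in Ikzf1+/- tumours.

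**Figure D2:**
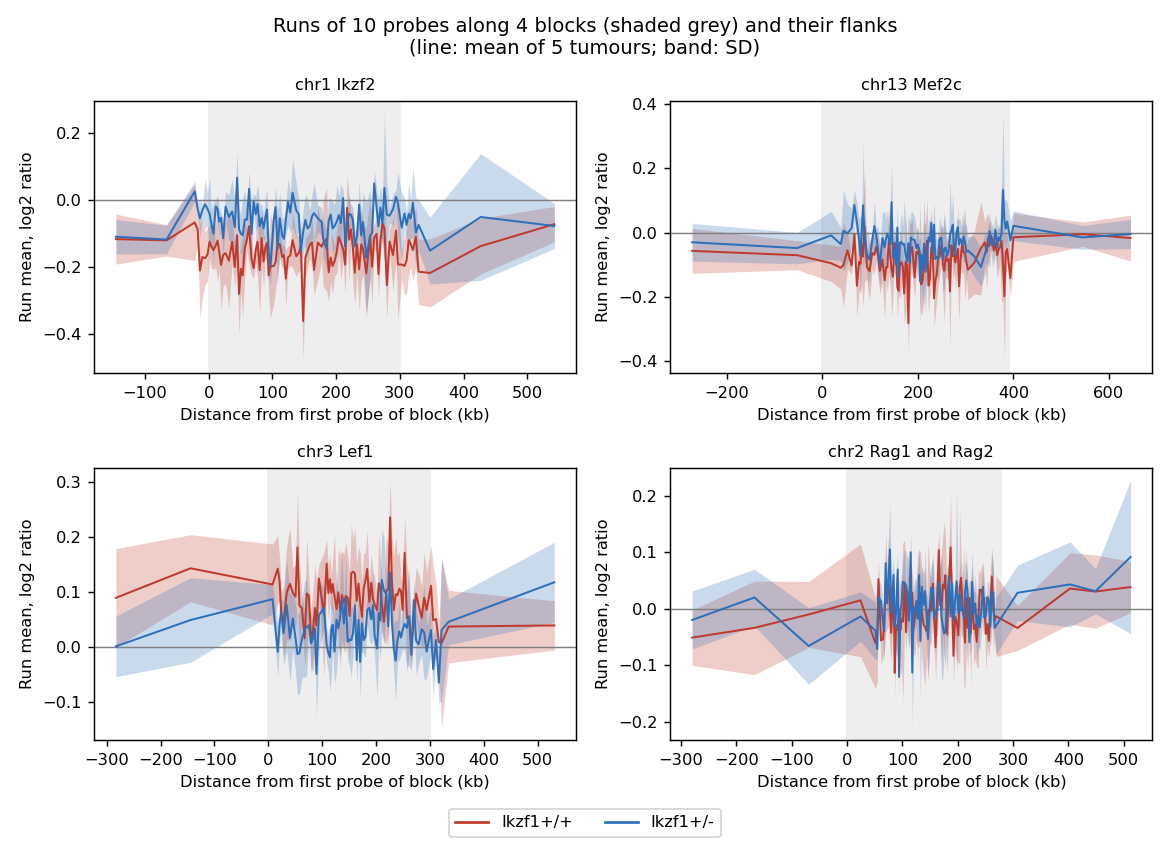
Mean log2 ratio of runs of 10 probes along the Ikzf2, Mef2c, Lef1 and Rag1 and Rag2 candidate blocks (grey) and their flanks, against distance from the first probe of the block in kb, as the mean (line) and SD (band) of 5 tumours per genotype. The Ikzf2 line lies below 0 throughout in Ikzf1+/+ tumours, and the Rag block stays around 0 in both genotypes.

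The Mef2c and histone blocks on chromosome 13 were also low. Mef2c (chr13:83508472-83899576, 1010 probes) had a mean of -0.087 ± 0.017 (SD, n = 5) in Ikzf1+/+ and -0.031 ± 0.021 in Ikzf1+/- tumours. With normexp the order turned, to -0.025 and -0.057. The block was below 0 in all 10, and 3 of its 4 windows and 35 of 99 runs were called lower than non-leukemic DNA. The histone block (chr13:23501154-23799980, 823 probes) had a mean of -0.11 ± 0.017 in Ikzf1+/+ and -0.069 ± 0.035 in Ikzf1+/- tumours, again with all 10 below 0. All 3 of its windows and 63 of its 81 runs were called lower, and the run at chr13:23726975-23741381 had the smallest limma adjusted p of all kept runs (2.66e-05, mean -0.19, from -0.25 to -0.12). The genotypes overlapped in this block, since Ikzf1+/- tumours 2 and 5 (-0.11 and -0.10) lay among the Ikzf1+/+ tumours. Mild low segments of -0.161 to -0.174 began at chr13:23714505 in Ikzf1+/+ tumours 1, 2, 4 and 5 and ran past the end of the block.

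Lef1 and Sox4 were the highest blocks with a candidate. Lef1 (chr3:130700036-130999947, 761 probes) measured 0.13, 0.093, 0.076, 0.073 and 0.089 in Ikzf1+/+ tumours 1 to 5. Ikzf1+/- tumours gave 0.021, 0.065, 0.022, 0.031 and 0.032. All values were above 0 and the genotypes did not overlap, although no window of the block was called between them. With normexp the genotype means were 0.089 and 0.12, in the opposite order. All 3 windows and 37 of 74 runs were called higher than non-leukemic DNA. The flanks of the Lef1 block averaged 0.020 ± 0.013 (SD, n = 10). Sox4 (chr13:28909630-29199189, 514 probes) had a mean of 0.097 ± 0.028 in Ikzf1+/+ and 0.048 ± 0.024 in Ikzf1+/- tumours, with all 3 windows and 31 of 50 runs called higher. The other 2 transcription factor blocks shifted little: Spi1 averaged 0.032 ± 0.018 and 0.013 ± 0.0063, and Tcf4 (1604 probes) -0.0095 ± 0.013 and 0.0045 ± 0.0095, with no window of either called.

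The recombinase block lay close to 0. Rag1 and Rag2 (chr2:101317103-101596105, 849 probes) averaged -0.0045 ± 0.018 in the wild-type group and 0.0037 ± 0.0075 in the heterozygous group (SD, n = 5). The genotypes overlapped, 6 of 10 tumours were above 0, and of 83 runs 4 were called higher and 2 lower. Its run means in single tumours ranged from -0.23 (Ikzf1+/+ tumour 1) to 0.30 (Ikzf1+/- tumour 5). With normexp the block means were -0.017 and 0.11 in Ikzf1+/+ and Ikzf1+/- tumours.

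Among the signalling candidates, Il7r, Pag1 and Rasa2 were above 0 in all 10 tumours. Pag1 (chr3:9600217-9996019, 1133 probes) averaged 0.065 ± 0.027 in Ikzf1+/+ and 0.020 ± 0.0048 in Ikzf1+/- tumours, with 38 of 112 runs and 3 of 4 windows called higher. The lowest Ikzf1+/+ value (0.037, tumour 3) was above the highest Ikzf1+/- value (0.024, tumour 3). With normexp this order turned, to means of 0.050 and 0.14. Il7r (chr15:9303571-9598441, 530 probes) did not separate the genotypes: the means were 0.055 ± 0.050 and 0.043 ± 0.045. Its highest values came from 1 tumour of each genotype, Ikzf1+/+ tumour 1 (0.12) and Ikzf1+/- tumour 2 (0.12). Only the last of its 3 windows was called higher. Gab2 (1278 probes) averaged -0.013 ± 0.012 and 0.0028 ± 0.014, Rasa2 (1065 probes) 0.032 ± 0.031 and 0.0091 ± 0.0044, and Smad2 (919 probes) 0.00012 ± 0.014 and 0.0063 ± 0.010. No window of these 3 blocks was called, and in Rasa2 the Ikzf1+/+ mean rested in part on tumour 1 (0.083, against 0.00032 to 0.031 in the others).

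The Pag1 block held the second run that differed between genotypes. At chr3:9659167-9662349 the log2 ratio was 0.39, 0.23, 0.20, 0.34 and 0.17 in Ikzf1+/+ tumours 1 to 5. In Ikzf1+/- tumours 1 to 5 it was -0.069, -0.039, 0.0030, -0.031 and -0.073, and the genotypes lay far apart. The difference was -0.31 ± 0.044 (SE, limma adjusted p = 0.0192), and on the slide with both genotypes -0.24. All 10 probes were well above background on every array. The 2 called runs make 1 of 2246 higher and 1 lower in Ikzf1+/- tumours, or 0.0445% each. Over all autosomal runs the shares were 0.0298% higher and 0.0372% lower, which is of the same order. With any single Ikzf1+/- tumour left out, limma called no kept run, and neither run passed with a replicate block (adjusted p = 0.0731 and 0.089). Without Ikzf1+/+ tumour 3, 10 runs were called higher and 16 lower, and without Ikzf1+/+ tumour 4 there was 1 call. With normexp the Pag1 run averaged 0.22 in Ikzf1+/+ and 0.19 in Ikzf1+/- tumours. The differences were then 0.018 in the Ikzf2 run and -0.035 in the Pag1 run (limma adjusted p = 0.829 and 0.721), and the median over probes ended both calls as well (0.20 and -0.10, limma adjusted p = 0.167 and 0.337).

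The remaining candidates showed small values. Atm (chr9:53302615-53499910, 639 probes) was below 0 in all 10 tumours, at -0.035 ± 0.0088 in Ikzf1+/+ and -0.0068 ± 0.0040 in Ikzf1+/- tumours, and the genotypes did not overlap. Neither of its windows was called against non-leukemic DNA. In the Atm window at chr9:53300000 the difference was 0.062 ± 0.022 (SE, limma adjusted p = 0.222). Nr3c2, the longest block together with Arid1b and Tcf4 at 6 windows each, averaged 0.0045 ± 0.017 and 0.025 ± 0.013. Tbl1xr1 averaged 0.019 ± 0.022 and 0.011 ± 0.0099, with 1 of 4 windows called higher. Mbnl1 averaged -0.048 ± 0.028 and -0.010 ± 0.015, with 2 of 4 windows called lower. Arpp21 averaged -0.012 ± 0.012 and 0.0055 ± 0.0056. Arid1b (2095 probes) averaged 0.0038 ± 0.015 and 0.0084 ± 0.0073.

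The 3 blocks without a candidate differed among themselves. The block at chr8:18905011-19170019 was low in all 10 tumours, at -0.075 ± 0.025 in Ikzf1+/+ and -0.036 ± 0.015 in Ikzf1+/- tumours, with all 3 windows called lower. Its flanks averaged -0.047 ± 0.033 (SD, n = 10), so most of the value extended beyond the block. The block at chr7:139803537-140099257 averaged 0.042 ± 0.024 and 0.016 ± 0.0053, above 0 in all 10, with 1 window called higher. The block at chr8:125303461-125598378 averaged 0.083 ± 0.057 in Ikzf1+/+ and 0.0078 ± 0.0042 in Ikzf1+/- tumours. It measured 0.18, 0.065, 0.027, 0.085 and 0.060 in Ikzf1+/+ tumours 1 to 5, all above the highest Ikzf1+/- value of 0.014. With normexp this order turned, to means of 0.059 in Ikzf1+/+ and 0.18 in Ikzf1+/- tumours.

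The 10 runs with the smallest limma p against non-leukemic DNA were spread over 8 blocks, and each lay on 1 side of 0 in all 10 tumours. The run at chr3:130924674-130927534 in the Lef1 block measured 0.15, 0.33, 0.22, 0.20 and 0.27 in the wild-type group against 0.14, 0.15, 0.12, 0.13 and 0.14 (adjusted p = 0.000164). The run at chr8:125543705-125545739 measured 0.40, 0.19, 0.23, 0.28 and 0.28 against 0.17, 0.070, 0.18, 0.15 and 0.14 (adjusted p = 0.000164). In Ikzf1+/+ tumour 1 this run overlapped the start of the long gain at chr8:125545576 and the mildly raised segment before it. In the Mbnl1 block, which was low on the whole, the run at chr3:60257359-60260159 was high: 0.21, 0.24, 0.14, 0.26 and 0.30 against 0.097, 0.12, 0.054, 0.081 and 0.14 (adjusted p = 0.000293). Its call was lost with the median over probes (0.051, adjusted p = 0.165). The run at chr15:9519931-9523021 in the Il7r block averaged 0.18 ± 0.095 (SD, n = 10) and the run at chr3:9602995-9605196 in the Pag1 block 0.16 ± 0.081. Low runs were chr13:83666734-83669289 in the Mef2c block (-0.16 ± 0.043), chr1:69593141-69595494 in the Ikzf2 block (-0.19 ± 0.071) and chr13:23793136-23795389 in the histone block (-0.155 ± 0.085). The differences of Ikzf1+/- minus Ikzf1+/+ tumours in the Lef1 and Mbnl1 runs were -0.10 and -0.13, and neither was called (limma adjusted p = 0.213 and 0.147).

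Focal changes were called by segmenting each array and keeping segments of at least 5 probes whose mean was at least 0.3 from 0. The kept windows held 6 such segments, 3 in Ikzf1+/+ tumour 1, 1 in tumour 2 and 2 in tumour 4, and none in Ikzf1+/+ tumours 3 and 5 or in any Ikzf1+/- tumour. The mean number was 1.2 ± 1.30 (SD, n = 5) in Ikzf1+/+ against 0 in Ikzf1+/- tumours, a difference of -1.2 with a two-sided exact permutation p of 0.167. With normexp, Ikzf1+/- tumours 1 and 5 had 1 call each. By window, 3 of 83 (3.61%) held a gain and 1 (1.2%) a loss, while 6.66% of all 23232 windows with at least 5 probes held a gain and 0.31% a loss. The share of all windows counts segments of any length on all autosomes, so it is not a share of focal gains. The lower share with a gain in the kept windows is therefore not a like comparison. The share with a loss rests on 1 window.

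The clearest focal gain lay in the chromosome 8 block at chr8:125416032-125419865, a stretch of 3.83 kb with 19 probes. Its mean was 0.98 in Ikzf1+/+ tumour 1, 0.95 in tumour 4, 0.47 in tumour 2, 0.33 in tumour 5 and 0.16 in tumour 3. The Ikzf1+/- tumours 1 to 5 measured 0.057, 0.17, 0.0057, 0.086 and 0.14, so the lowest Ikzf1+/+ value fell within their range. Tumours 1 and 4 were called with these borders, and tumour 2 from chr8:125416197 to the same end, at 0.497 over 18 probes. All 19 probes were well above background on every array. Neighbouring probes were raised as well in tumours 1 and 4. In tumour 4 a mild segment of 0.267 led up to the peak, over chr8:125406499-125415942 (45 probes). In tumour 1 a mild segment of 0.216 ran over chr8:125420075-125545456 (475 probes). From there to the end at chr8:125565419 the mean was 0.504 over 19.8 kb and 72 probes, the longest call in the kept windows. The other 4 Ikzf1+/+ tumours measured 0.097, 0.021, 0.16 and 0.11 over that last stretch, and the Ikzf1+/- tumours between -0.034 and -0.0016.

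A similar short peak in the chromosome 7 block was called in 1 tumour. Over chr7:139904079-139907478 (16 probes, 3.4 kb) Ikzf1+/+ tumour 1 measured 0.76. Tumours 2 to 5 measured 0.21, 0.057, 0.28 and 0.24, and Ikzf1+/- tumours lay between -0.021 and 0.042. The rest of that block averaged 0.068 in Ikzf1+/+ tumour 1, so the peak stood alone.

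**Figure D3:**
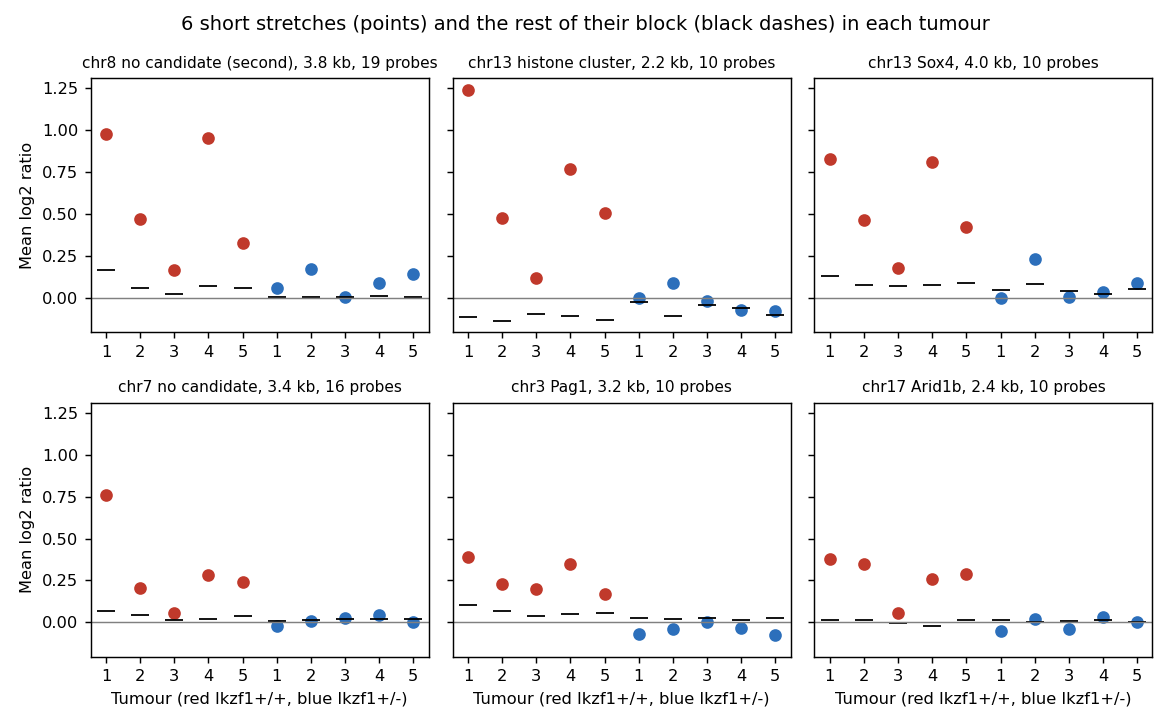
Mean log2 ratio of 6 short stretches (points, titles give chromosome, candidate gene, length and probes) and of the rest of their block (black dashes) in each tumour, Ikzf1+/+ in red and Ikzf1+/- in blue. Ikzf1+/+ tumour 1 is highest in every panel, tumour 3 is lowest of the Ikzf1+/+ tumours in all but the Pag1 panel, and most Ikzf1+/- points lie near their block.

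Further short peaks were not called as segments and are described because of their values; why they were not called was not tested. In the histone block the run at chr13:23712192-23714408 measured 1.24, 0.48, 0.12, 0.77 and 0.51 in Ikzf1+/+ tumours 1 to 5, the highest run of all kept windows. The Ikzf1+/- tumours lay between -0.079 and 0.088. The rest of that block was low in the same arrays (-0.12 ± 0.017 in Ikzf1+/+), so the peak rose out of a low region. In the Sox4 block the run at chr13:29041684-29045637 measured 0.82, 0.46, 0.18, 0.81 and 0.42 in Ikzf1+/+ tumours 1 to 5. The other genotype gave -0.0011, 0.23, 0.0034, 0.036 and 0.086. In the Arid1b block the run at chr17:5251723-5254097 measured 0.38, 0.35, 0.055, 0.26 and 0.29, against -0.054 to 0.033 in Ikzf1+/- tumours. Between genotypes these runs had limma adjusted p of 0.0975 (histone), 0.0839 (Sox4) and 0.0709 (Arid1b), and none was called. At the chromosome 8, histone and Sox4 peaks the Ikzf1+/+ tumours 1 and 4 were the highest and tumour 3 the lowest.

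The signal at these peaks was not dim. Median Cy3 signal, which reports the non-leukemic DNA, was 259 at the chromosome 8 peak, 261 at the histone peak and 232 at the Sox4 peak, against 242, 196 and 179 in the rest of their blocks. All probes of these 3 peaks were well above background on all 10 arrays. With normexp the chromosome 8 peak averaged 0.60 in Ikzf1+/+ and 0.27 in Ikzf1+/- tumours, the histone peak 0.58 and 0.16, and the Sox4 peak 0.60 and 0.24. For the chromosome 7 stretch normexp gave 0.28 and 0.25, and for the Arid1b run 0.23 and 0.19, while the rest of those blocks stood at 0.18 and 0.14 in Ikzf1+/- tumours.

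**Figure D4:**
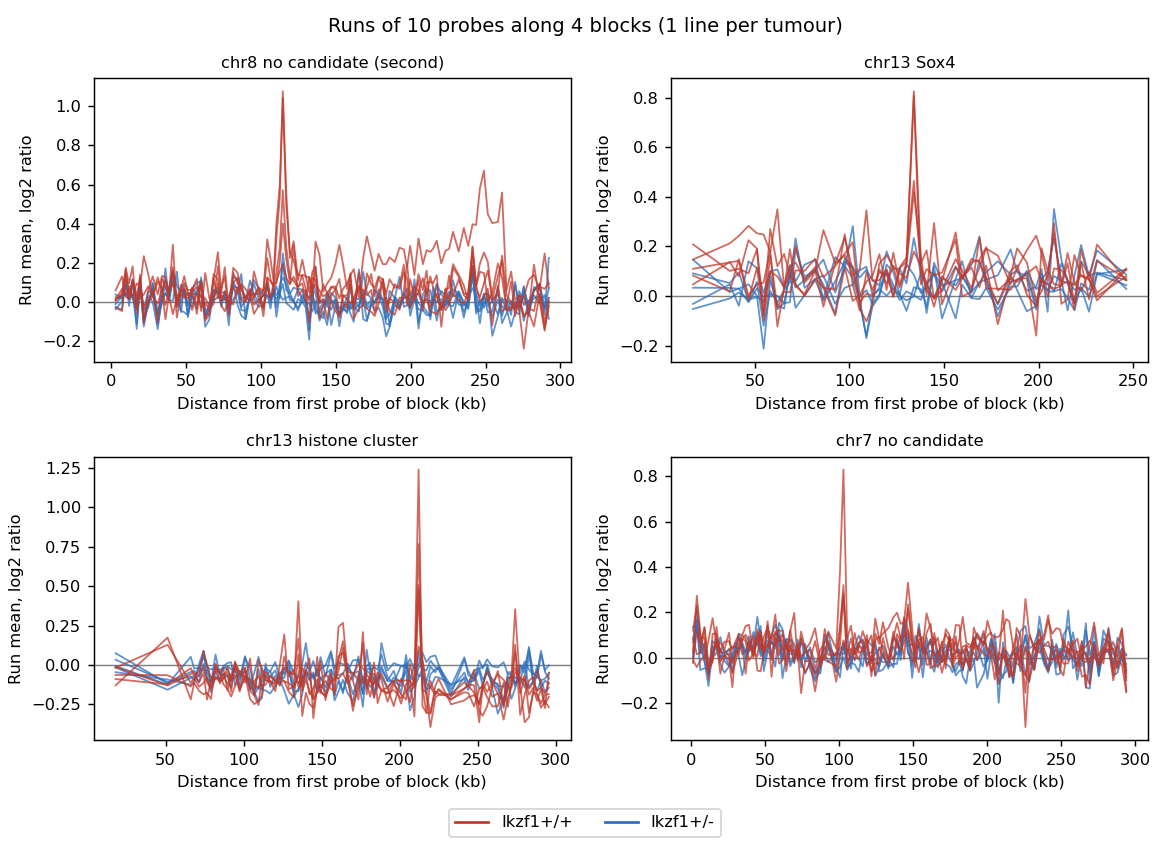
Mean log2 ratio of runs of 10 probes along the distal chromosome 8 block, the Sox4 and histone candidate blocks and the chromosome 7 block without a candidate, against distance from the first probe of the block in kb, 1 line per tumour (red Ikzf1+/+, blue Ikzf1+/-). Narrow peaks reach 1.08, 0.82, 1.24 and 0.83 in Ikzf1+/+ tumour 1, and in the chromosome 8 panel this tumour stays raised along the block after the peak.

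The only called loss was the smallest segment. Over chr13:83889716-83890858 in the Mef2c block (5 probes, 1.14 kb) Ikzf1+/+ tumour 4 measured -0.93. The other Ikzf1+/+ tumours 1, 2, 3 and 5 measured 0.040, 0.027, -0.43 and -0.17, and the Ikzf1+/- tumours between -0.10 and 0.18. These probes were dim: median Cy3 signal was 56.8, against 145 in the rest of the block, and 1 of the 5 probes was well above background on all 10 arrays. With normexp the Ikzf1+/+ mean was 0.063 in place of -0.29.

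Across all kept runs, 52 of 2246 (2.32%) reached 0.3 in at least 1 tumour and 68 (3.03%) reached -0.3, against 8.24% and 2.06% of all autosomal runs. The share of high runs over all autosomes does not separate focal from long gains. Ikzf1+/+ tumour 3 alone had 1481 high runs there, and 0 in the kept windows. Of the 118 kept runs past either limit, 93 were past it in 1 tumour, 25 in 2 or more and 0 in 5 or more. They were unevenly spread over the tumours. Ikzf1+/+ tumour 1 had 39 high and 21 low runs, tumour 2 had 6 and 15, tumour 3 had 0 and 9, tumour 4 had 12 and 20, and tumour 5 had 5 and 15. In this order high runs made up 1.74%, 0.267%, 0%, 0.534% and 0.223% of kept runs. Of all autosomal runs they made up 0.915%, 0.16%, 5.51%, 0.346% and 1.65%. Low runs made up 0.935%, 0.668%, 0.401%, 0.89% and 0.668% of kept runs, against 0.74%, 0.405%, 0.186%, 0.35% and 0.424% of all autosomal runs. Among the Ikzf1+/- tumours, tumour 1 had 0 of either, tumours 2, 3 and 4 had 1 each, and tumour 5 had 6 high and 2 low. In Ikzf1+/- tumour 5 these were 0.267% and 0.089% of kept runs, against 1.36% and 0.413% of all autosomal runs. In Ikzf1+/- tumours 1 to 4 each share was at most 0.0445% of kept and 0.0856% of all autosomal runs. Single probes rarely agreed over all arrays: 1 of 22867 probes lay at or below -0.5 in all 10 (chr3:22059497-22059541 in the Tbl1xr1 block, mean -0.74), and none at or above 0.5. This was so over the whole array too. Of all 382487 autosomal probes, 5 lay at or below -0.5 in all 10 (0.0013%, against 0.0044% in the kept windows) and 2 at or above 0.5.

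The pattern over the 83 windows was shared between arrays. The correlation of window means between 2 arrays had a median r of 0.739 over 45 pairs (0.426 to 0.924, over 83 windows), as a description only, since the arrays share probes and may share the normal DNA. The amplitude differed by genotype. The SD of the 83 window means was 0.0869, 0.0602, 0.0544, 0.0572 and 0.0640 in Ikzf1+/+ tumours 1 to 5. In the Ikzf1+/- tumours it was 0.0246, 0.0483, 0.0198, 0.0271 and 0.0380. The genotypes did not overlap, and the means of 0.0645 ± 0.0130 and 0.0316 ± 0.0115 (SD, n = 5) differed with a two-sided exact permutation p of 0.00794, the smallest that 5 against 5 allows. This comparison was not among the planned tests. With normexp the order turned, to 0.0636 ± 0.0154 and 0.0730 ± 0.0095 (exact permutation p = 0.286). Probe noise alone would give 0.0136 and 0.0118.

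**Figure D5:**
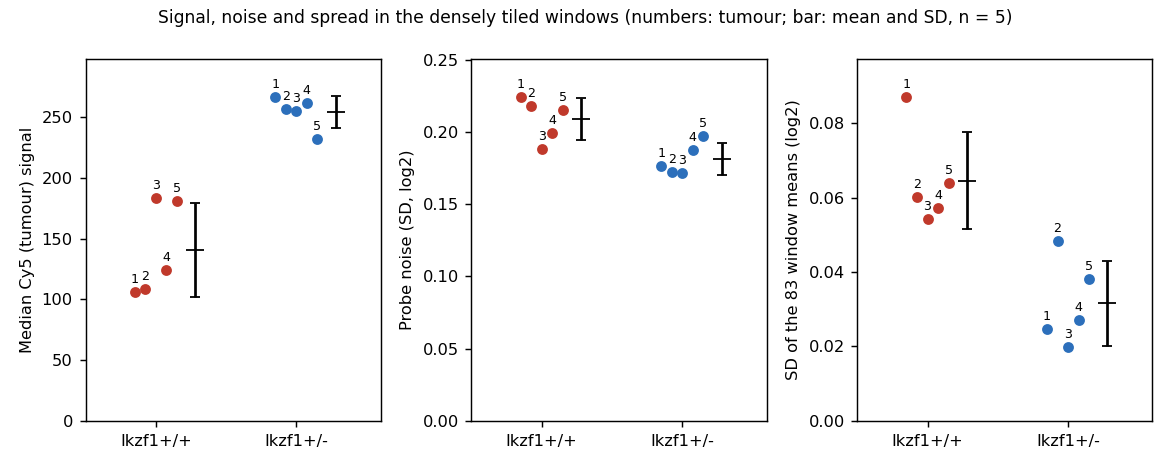
Median Cy5 signal of the tumour DNA, probe noise and SD of the 83 window means in the densely tiled windows for each tumour (points, numbered; bars give mean and SD, n = 5). The 5 Ikzf1+/+ arrays have lower Cy5 signal (106 to 184) than the 5 Ikzf1+/- arrays (232 to 266) and a wider spread of window means, an order that turns for the spread and for probe noise with normexp.

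Measures of the hybridisation moved with genotype too. In the kept windows the median Cy5 signal was 106, 109, 184, 124 and 181 in Ikzf1+/+ tumours 1 to 5. For Ikzf1+/- tumours it was 266, 257, 255, 262 and 232, without overlap (141 ± 38.6 against 254 ± 13.3, exact permutation p = 0.00794). Median Cy3 signal was 201 ± 6.67 against 186 ± 9.60 (exact permutation p = 0.0238). Probe noise, a robust SD of differences between neighbouring probes, was 0.209 ± 0.0148 in Ikzf1+/+ and 0.181 ± 0.0110 in Ikzf1+/- arrays (exact permutation p = 0.0159). With normexp this order turned, to 0.235 and 0.248 (exact permutation p = 0.333). Values well above background in both channels made up 97.5% in Ikzf1+/+ and 99.0% in Ikzf1+/- arrays. These differences were not particular to the kept windows. In autosomal probes outside densely tiled windows, median Cy5 signal was 119 ± 33.2 against 216 ± 9.85 (exact permutation p = 0.00794). Median Cy3 signal there was 175 ± 5.76 against 160 ± 8.18, and probe noise 0.205 ± 0.0144 against 0.180 ± 0.0094 (exact permutation p = 0.0238 for each). The part of tumour signal, noise or slide in the differences between genotypes described above was not tested.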

How the data were processed

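Each of the 10 deposited scanner tables comes from a 2-colour Agilent array read with Feature Extraction 10.7.3.1 per the file headers (10.5.1.1 per the submitters' processing notes), and holds processed intensity in both channels and a log10 ratio of Cy5 over Cy3. A deposited matrix holds log2 ratios of the same arrays, with the same scale and direction and no further centring (column medians from -0.0194 to -0.0006). The ratio used was log2 of Cy5 over Cy3 processed intensity, centred on the autosomal median of each array, averaged over spots of a probe, with flagged outlier spots left out. Values were averaged over 100 kb windows (at least 3 probes) and over runs of 10 probes, and tested with limma 3.58.1 over all autosomal features, without block, with Benjamini-Hochberg adjustment. Segments came from a penalised change-point search in each array. Scripts were tested on simulated data. The precision is limited by 5 arrays per genotype.

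The windows, gene lists and tests were chosen with earlier results of these data known. The rule for named regions took windows and runs past the adjusted threshold (at most 10 of smallest p), the 5 windows at each extreme of the difference and of the mean, and windows with a called segment. The histone, Sox4 and Arid1b peaks, the run at chr1:69646718 and the block averages were chosen after their values were seen. The tests of the SD of window means and of median Cy5 and Cy3 signal were not among the planned tests. A test per gene was planned and not made, since the files pair no probe with a gene. The normexp alternative used raw median signals, the signals in the files, in place of mean signals. An offset of 50 was added, and centring on the autosomal median was the only scaling between the channels. A result that turned with normexp is therefore not a check of background correction alone. No sequence of the windows is printed, because no mm9 genome was used here.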

Additional observations from a re-analysis of the deposited data

Results flagged for a closer look

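Among 74 groups of 5 tumours examined (22 block means, 12 stretches and 3 array measures in each genotype), 8 held a tumour that stood apart from the other 4. For independent groups not chosen by their values, chance alone sets apart about 1 group in 20. The 12 stretches were chosen for calls or extreme values in these data and lie inside the blocks. That rate therefore does not apply to the whole set. Among the Ikzf1+/- tumours, tumour 2 was lowest in the Spi1 block (0.00217, the next tumour at 0.0140) and highest in the Lef1 block (0.0647, next 0.0317) and in the Il7r block (0.122, next 0.0339). Ikzf1+/- tumour 4 was lowest in the Pag1 block (0.0121, next 0.0211), and Ikzf1+/- tumour 5 was lowest over chr13:83889716-83890858 in the Mef2c block (-0.10, next 0.141). Among the Ikzf1+/+ tumours, tumour 3 was lowest in the Atm block (-0.0507, next -0.0334). Ikzf1+/+ tumour 1 was highest in the Sox4 block (0.146, next 0.0926) and over chr8:125545576-125565419 (0.504, next 0.157), a stretch defined by the call in that tumour.

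In 2 runs of 10 probes the shift against non-leukemic DNA differed between the genotypes in limma. The difference of Ikzf1+/- minus Ikzf1+/+ was 0.20 in the Ikzf2 block (chr1:69569093-69572408, adjusted p = 0.0241) and -0.308 in the Pag1 block (chr3:9659167-9662349, adjusted p = 0.0192).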

How the results depend on the processing

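The absence of called windows between genotypes held under every alternative run, with 0 of 83 kept windows each time. The total of kept windows called against non-leukemic DNA (28) moved by over 1.5 times with normexp background correction (43, 36 higher and 7 lower) and stayed within that under the other alternatives. Its 14 higher windows became 9 with loess, 8 with the median over probes, 9 with the replicate block and 9 without Ikzf1+/- tumour 1, 2 or 5. Kept runs against non-leukemic DNA (528) moved with normexp (860, 716 higher and 144 lower) and with runs of 20 probes (350 of 1104), and the 269 called higher became 169 with the median over probes and 178 and 179 without Ikzf1+/- tumours 2 and 4. The 2 kept runs called between genotypes became 233 with normexp (223 higher), 32 with centring per chromosome, 1 with loess, 1 without dim or saturated probes, 0 with the median over probes, 12 with runs of 5 and 14 with runs of 20 probes, and 0 to 26 with 1 tumour left out. With the replicate block they became 0. Deviations from the group mean correlated between same-numbered tumours with r from -0.018 to 0.20 over all windows. The same number gave the highest r for Ikzf1+/+ tumours 2 (0.045) and 5 (0.20) and not for tumours 1, 3 and 4. The numbers were therefore not taken to pair samples. With normexp the genotype difference turned at chr8:125400000 (0.072), chr8:125500000 (0.055), chr3:130800000 (0.018), chr13:83500000 (-0.060) and in the run at chr1:69646718 (-0.064). The other 6 named windows and 7 named runs kept their direction under all alternatives. The difference in called segments (-1.2) ran from -1.5 to -0.75 with 1 tumour left out, and passed the threshold without Ikzf1+/+ tumour 3 or 5 (-1.5, exact permutation p = 0.0476). With the median of each probe over the arrays removed, an alternative chosen after seeing the data, 7 segments were called, 1 of them in Ikzf1+/- tumour 3. The difference in probe noise (-0.0279) turned with normexp (0.0127) and had p = 0.0625, the smallest an exact permutation of signs over 5 pairs gives, with the replicate block (-0.0279). The difference in the SD of window means (-0.0330), examined under alternatives chosen after seeing the data, turned with normexp (0.00936) and had the same exact permutation p of 0.0625 with the replicate block (-0.0330). It ran from -0.0372 to -0.0274 with 1 tumour left out. The causes were not tested. Tests per gene were not run, because the files pair no probe with a gene. Dim probes limit the values in the Ikzf2 and Mef2c blocks, and 5 arrays per genotype limit all tests.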
